A study of Mus musculus with 17 samples.

Results

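Leukemia labelled as arising from DN2 thymocytes was compared with healthy DN2 thymocytes. The members were chosen by their titles in the deposited table: 5 arrays titled as DN2-derived myeloid leukemia and 2 arrays titled DN2, which is 7 of the 17 arrays of the series. The leukemia arrays held splenocytes of recipient mice that had received DN2 cells transformed with Myc and Bcl2. The design text describes the sampled cells as flow-sorted for CD11b and Gr1 and against CD3, CD4 and CD8. The healthy arrays held DN2 cells (CD4 and CD8 double negative stage 2) from the thymus and were labelled with neither transgene nor transplantation. All 7 were labelled C57/Bl6 and wildtype, the donors were described as CD45.2, and recipients were 4 to 8 weeks old and received 4.5 to 6 Gy of irradiation. The age of the healthy donors, the vector carrying the transgenes and the number of clones per leukemia are not stated by the labels used here. The other arrays held leukemia from LSK cells (3), leukemia from granulocyte-macrophage progenitors (GMP, 5) and healthy GMP (2), and they entered the fit to estimate the spread. Nothing in the labels says that replicates came from separate mice, so the p-values measure only the spread between these samples, which may be technical.

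DN2 thymocytes are early T-cell progenitors that still carry the stem cell factor receptor Kit, have gained the interleukin 2 receptor chain Il2ra and receive Notch signals from the thymic stroma. At this stage factors inherited from stem cells, such as Erg, Lyl1 and Bcl11a, are still present, while Gata3 and Bcl11b move the cell towards the T lineage and Dntt, Rag1 and Rag2 prepare the rearrangement of the T-cell receptor genes. Loss of Notch signals or of Bcl11b at this point is known to let such cells take other fates, including natural killer (NK) cells and myeloid cells. NK cells share much of the T-cell programme, including Cd2, CD3 signalling chains, granzymes and the T-box factors Eomes and Tbx21. The comparison addresses what a DN2-labelled leukemia kept, lost and gained relative to the normal cell named as its origin.

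Values are log2 expression values per gene, and a difference is the mean of the 5 leukemia arrays minus that of the 2 healthy arrays, with its standard error (SE). The SE uses the spread pooled over all 5 groups of the series, so it can differ from the spread of the 7 arrays listed. For Mpo the standard deviation was 0.14 in DN2-labelled leukemia, 0.02 in healthy DN2 and 2.87 in GMP-labelled leukemia. A gene was called when its adjusted p in limma was under 0.05. Over all arrays the median value was 3.83, and values near it are background, where differences are compressed. The 2 healthy arrays correlated at 0.997 across 11629 genes and the leukemia arrays at 0.940 to 0.985 among themselves, against 0.856 to 0.890 between leukemia and healthy arrays. Leukemia arrays 1 and 3 lay above the other 3 in the means of the NK receptor, cytotoxic and interferon response lists, but not apart from them across all genes, where array 3 correlated with array 4 at 0.973 and with array 1 at 0.972. Array 2 carried RNA from a Y chromosome (Eif2s3y 10.0, Xist 6.34) while the other 4 and both healthy arrays did not (Eif2s3y 2.69 to 3.01, Xist 12.2 to 12.5). Results that rest on arrays 1 and 3 are given with and without them.

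The labelled cell types were checked against their markers. In the healthy arrays Kit was at 9.90 and 9.69, Il2ra at 8.13 and 8.55, Cd44 at 10.0 and 10.0, Notch1 at 11.7 and 11.7 and Dntt at 12.3 and 11.9. Ptcra, a surrogate receptor chain that was also fixed as a DN2 marker, was at background (3.41) and went against the label. The healthy arrays thus carried the RNA of these markers of their label except Ptcra. In the leukemia arrays Itgam in 3 of 5 arrays and the mean of the fixed myeloid markers went against the label. Itgam, which encodes CD11b, was 7.17, 3.47, 7.38, 3.24 and 3.42 in arrays 1 to 5 and 3.71 and 3.97 in the healthy arrays, so that arrays 2, 4 and 5 lay at background. Ly6c1, a relative of the Gr1 antigen, was not among the fixed myeloid markers. It was 13.08, 12.99, 13.12, 12.92 and 12.65 in leukemia and 6.82 and 6.98 in healthy DN2. It was thus high in every leukemia array, also where Itgam lay at background. The mean of the 10 tested myeloid markers was 4.31 to 6.77 in the DN2-labelled leukemias, against 10.3 to 11.0 in the GMP-labelled ones. Cd3e, a CD3 chain named in the negative gate, was 8.47, 7.79, 8.20, 8.55 and 9.06 in leukemia and 5.56 and 5.48 in healthy DN2. The gate was set on surface protein, which the arrays did not measure. The leukemia is therefore called DN2-labelled leukemia here and given no cell type. In bulk RNA, fewer cells of a type and less RNA per cell cannot be told apart.

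Of 11629 genes tested, 2695 (23.2%) were called: 1103 (9.48%) were higher and 1592 (13.7%) lower in leukemia. Among them 734 rose and 1182 fell by at least 2-fold. In 2724 genes (23.4%) all 5 leukemia arrays lay above both healthy arrays, and in 3085 (26.5%) all lay below. With either healthy array left out, the remaining one was assumed to vary like the other groups, and the calls dropped to 1252 and 1236. Weighting the arrays by their quality gave 5885 calls and raised most list counts. Without leukemia arrays 1 and 3 there were 2495 calls, of which 2242 were shared with the full set. The median difference over all genes was 0.01.

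**Figure D1:**
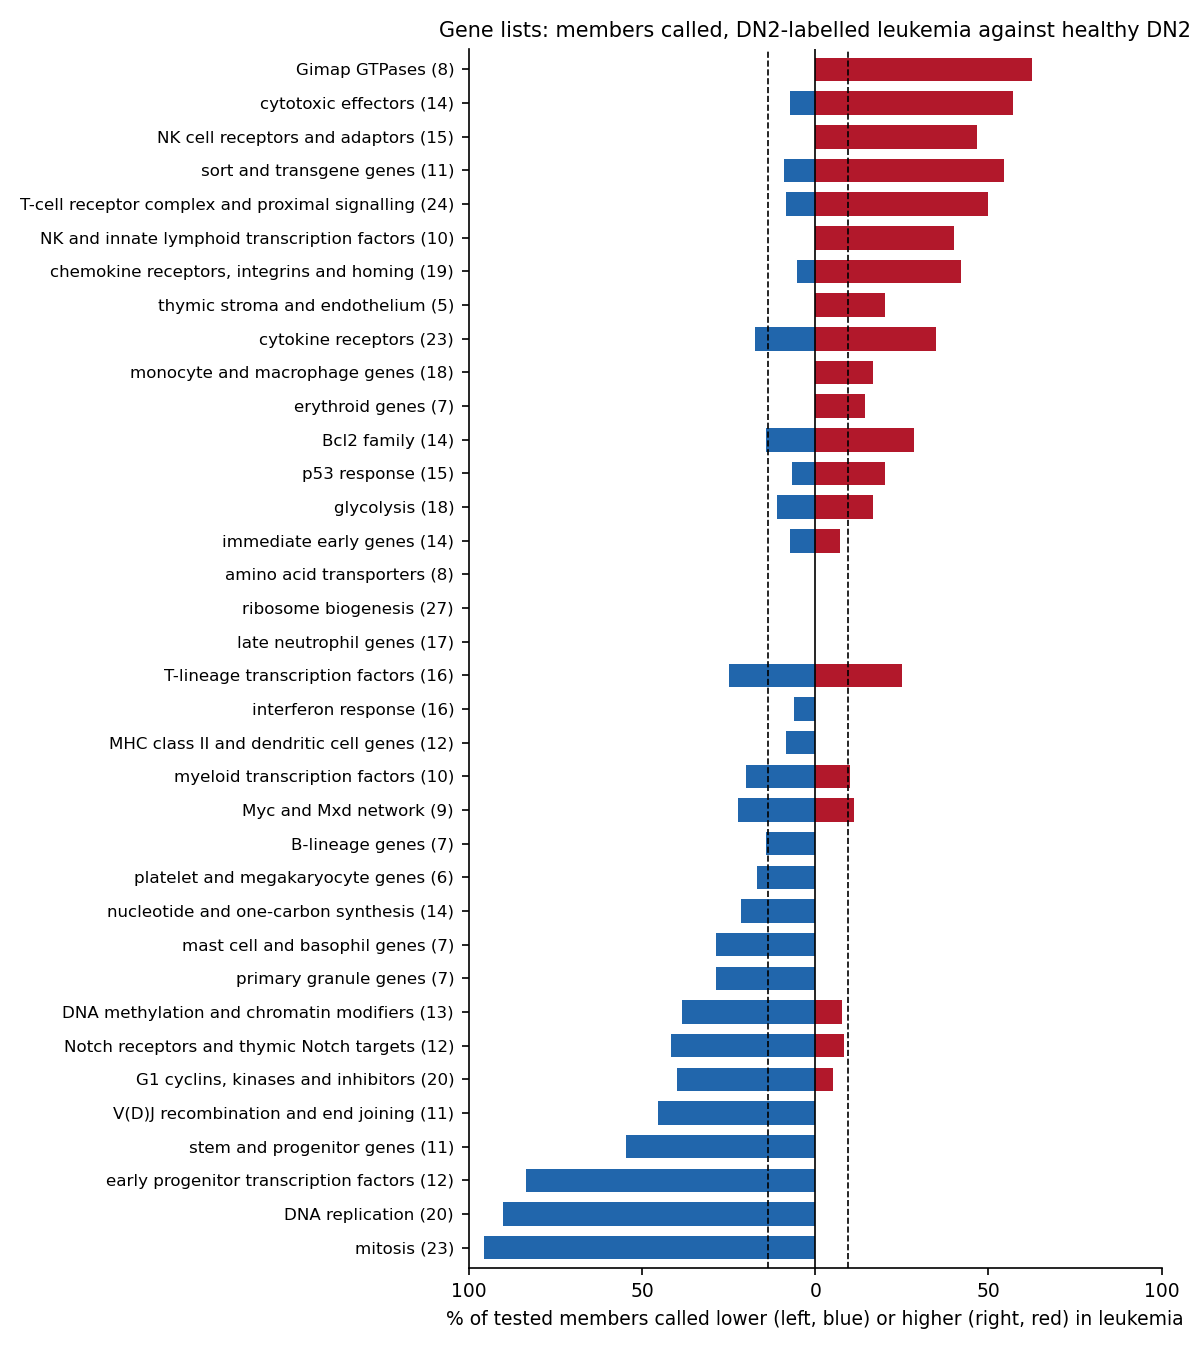
The percentage of tested members of each gene list called higher (red, right) or lower (blue, left) in DN2-labelled leukemia than in healthy DN2, with the number tested in brackets and dashed lines at the percentages over all genes tested (9.48% higher, 13.7% lower). Mitosis, DNA replication and early progenitor transcription factors reach furthest to the left, and Gimap GTPases, cytotoxic effectors and sort and transgene genes furthest to the right.

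The 15 largest falls among called genes without overlap included 4 genes known from progenitors, Cpa3, Dntt, Cd93 and Erg. Cpa3, the carboxypeptidase of mast cells that is also made by early blood progenitors, was 12.2 and 12.2 in the healthy arrays and 3.13, 3.28, 3.23, 3.03 and 3.25 in the 5 leukemia arrays, a difference of −9.01 ± 0.29 (SE, n = 5 and 2, adjusted p = 6.08e-12). Dntt, the enzyme that adds untemplated bases at antigen receptor joints, went from 12.3 and 11.9 to 2.90, 3.14, 3.16, 3.36 and 3.27 (−8.96 ± 0.17, adjusted p = 2.78e-14). All 5 leukemia arrays were at background for both genes. Scin, an actin-severing protein of the gelsolin family, differed by −8.87 ± 0.17 and Myl10, a myosin light chain, by −8.24 ± 0.25. Ifitm1, an interferon-inducible membrane protein, differed by −7.47 ± 1.07, and Mpo, the myeloperoxidase of neutrophil granules, was 10.6 and 10.6 in healthy DN2 and 3.35, 3.40, 3.62, 3.67 and 3.56 in leukemia (−7.07 ± 1.40, adjusted p = 0.00187). Cd93, a surface glycoprotein of progenitors, fell by 6.87 ± 0.76, Deptor, an inhibitor of the kinase mTOR, by 6.86 ± 0.57, and Erg, an ETS factor of stem cells, by 6.73 ± 0.75. The rest of the 15 were Rgs18 (−6.83 ± 0.60) and Marcks (−6.83 ± 1.11), which act in G-protein and protein kinase C signalling, and Arpp21 (−6.73 ± 0.14), Bex6 (−6.96 ± 0.75), 4930519L02Rik (−7.30 ± 0.20) and 1810073O08Rik (−6.93 ± 0.13).

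The largest rises were mostly in genes of T cells and NK cells. Cd2, an adhesion receptor of both, was 3.28 and 3.05 in healthy DN2 and 10.9, 10.9, 11.2, 10.9 and 11.4 in leukemia, a difference of 7.91 ± 0.26 (SE, n = 5 and 2, adjusted p = 9.24e-12). Gzmk, a granzyme, went from 3.88 and 4.22 to 11.9, 11.0, 12.3, 12.1 and 12.1 (7.83 ± 0.28, adjusted p = 2.28e-11). Klrk1, which encodes the activating receptor NKG2D, was 3.51 and 3.55 in healthy DN2 and 11.8, 9.10, 12.1, 10.7 and 11.5 in leukemia (7.52 ± 0.71). For these 3 genes every leukemia array was far above background while the healthy arrays lay near it. Klrb1c (NK1.1) rose by 7.29 ± 0.44, Klrd1 (CD94) by 6.55 ± 0.60 and Klrc1 (NKG2A) by 6.44 ± 1.02, and Crtam, a receptor of activated NK and T cells, by 6.80 ± 0.19. The T-box factor genes Eomes and Tbx21 rose by 7.02 ± 0.32 and 6.82 ± 0.56, Cd3d, a CD3 chain, by 7.09 ± 0.46 and Gimap4, a lymphocyte GTPase, by 7.16 ± 0.43. Outside lymphoid genes, Myl1, a myosin light chain best known from skeletal muscle, was 2.95 and 2.74 in healthy DN2 and 10.0, 9.26, 10.5, 10.9 and 9.99 in leukemia (7.29 ± 0.32), and the ephrin receptor Epha3 rose by 6.68 ± 0.25 and Gramd3 by 6.40 ± 0.56. Mycn completes the 15 and is described with the transgenes. The calls of the 30 extreme genes held with either healthy array left out and without leukemia arrays 1 and 3. Over all 20 alternatives Mycn alone lost its call, in the mean over probe sets (adjusted p = 0.571).

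**Figure D2:**
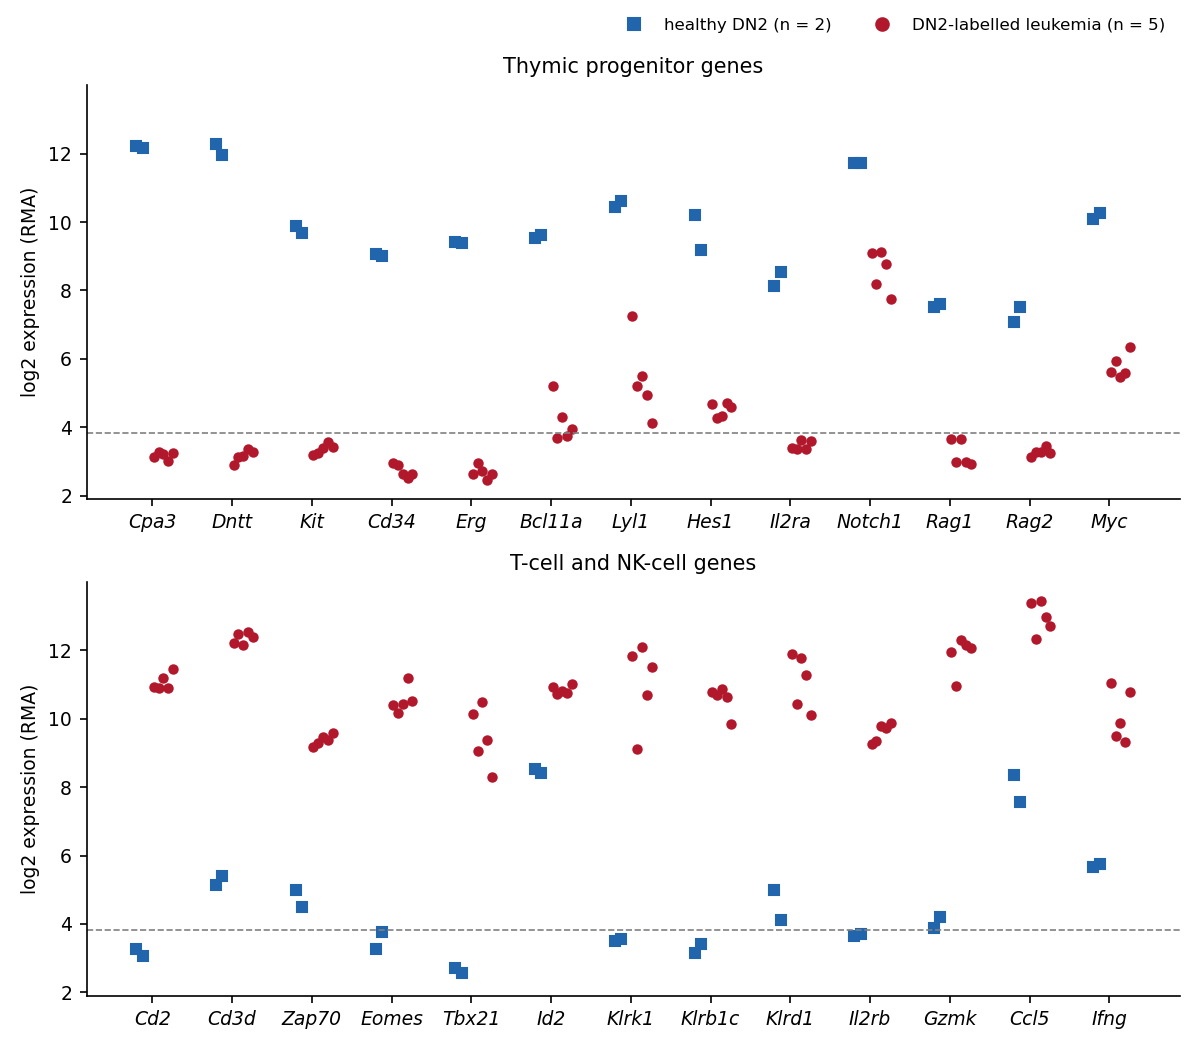
Log2 expression of selected genes in each of the 2 healthy DN2 arrays (blue squares) and the 5 DN2-labelled leukemia arrays (red circles, arrays 1 to 5 from left to right), with a dashed line at the median of all values, 3.83. The progenitor genes of the upper panel were lower in every leukemia array, most of them at background. The T-cell and NK-cell genes of the lower panel were higher in every one. The genes shown were picked from called genes whose arrays do not overlap, so these directions follow from the choice. Among list members not shown, Themis and Tnfsf10 were called lower, and Cd44, Lmo4 and Hmga2 did not pass.

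For most of these genes the change was of another size in GMP-labelled leukemia against healthy GMP. The difference between the 2 changes (the origin interaction, called for 12.7% of all genes) passed for 26 of the 30. The 30 were picked for their size in DN2, so part of a larger change there follows from the choice. Dntt was at background in both GMP groups (3.32 and 3.42), and Eomes and Klrk1 did not change from healthy GMP by the test (0.11 ± 0.32 and −1.07 ± 0.71). Cpa3 fell in both comparisons, by 9.01 ± 0.29 from healthy DN2 and by 6.91 ± 0.29 from healthy GMP, and Cd3d rose in both, by 7.09 ± 0.46 and 3.96 ± 0.46. Marcks went in opposite directions, −6.83 ± 1.11 in DN2 against 2.18 ± 1.11 in GMP, although the latter did not pass (adjusted p = 0.178). The interaction did not pass for Mycn (adjusted p = 0.863), Bex6 (0.48), Mpo (0.3) and Cd93 (0.212).

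**Figure D3:**
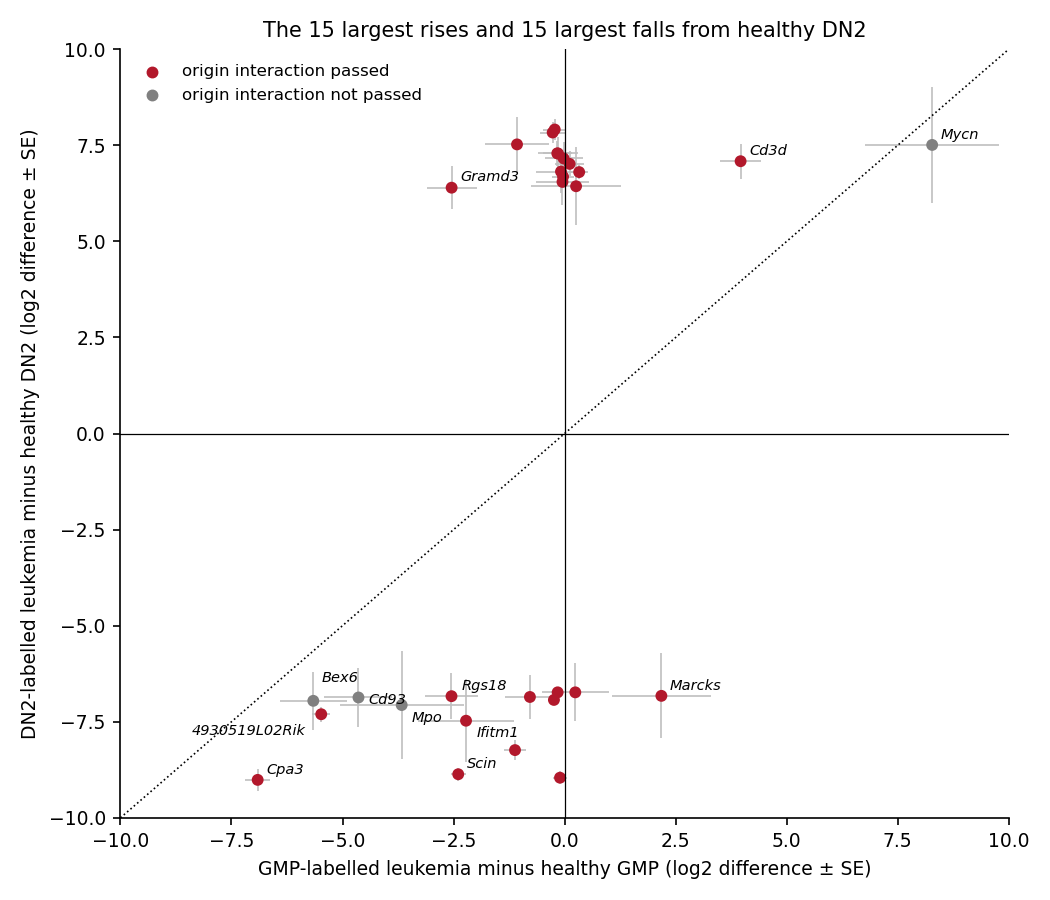
The log2 difference ± SE of the 15 largest rises and 15 largest falls, from healthy DN2 to DN2-labelled leukemia (vertical) against that from healthy GMP to GMP-labelled leukemia (horizontal), with a dotted line of equal change and names for genes that changed by over 1.5 in GMP. Red points passed the interaction test (26 genes) and grey points did not (4 genes), of which Mycn lies beside the line of equal change.

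Transcription factors that DN2 cells inherit from stem cells fell together. Of 12 tested, 10 fell, with a median difference of −3.20. Hmga2 (−0.68 ± 0.29) and Lmo4 (0.28 ± 0.28) did not. Bcl11a, a zinc-finger repressor of lymphoid and myeloid progenitors, was 9.55 and 9.63 in healthy DN2 and 5.21, 3.67, 4.29, 3.75 and 3.96 in leukemia (−5.41 ± 0.67, adjusted p = 2.94e-05). Lyl1, a basic helix-loop-helix factor, was 10.4 and 10.6 in healthy DN2 and 7.26, 5.20, 5.49, 4.93 and 4.12 in leukemia (−5.13 ± 0.56). Array 1 kept the highest level of both among the leukemias, and no leukemia array reached the healthy level. Lmo2, an adaptor of Lyl1 and Tal1 complexes, showed the same array apart, with 6.64, 3.36, 3.62, 3.57 and 3.76 in leukemia and 7.82 and 7.56 in healthy DN2 (−3.50 ± 0.66). Mef2c fell by 3.91 ± 0.55, Tal1 by 3.24 ± 0.20 and Gfi1b by 3.16 ± 0.78. Spi1, which encodes the myeloid and early lymphoid factor PU.1, was 6.74 and 6.64 in healthy DN2 and 6.56, 3.72, 3.96, 3.69 and 4.66 in leukemia, where array 1 lay just below both healthy arrays (−2.17 ± 0.57, adjusted p = 0.013). Spi1, Gfi1b and Hhex (−1.83 ± 0.50) did not pass with either healthy array left out, and Spi1 did not pass in a fit of the 7 arrays alone (adjusted p = 0.0763).

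Stem and progenitor genes went the same way: 6 of 11 fell (median −1.07). Kit, the stem cell factor receptor, was 9.90 and 9.69 in healthy DN2 and 3.19, 3.26, 3.41, 3.56 and 3.42 in leukemia (−6.43 ± 0.88, adjusted p = 8.34e-05). Cd34, a sialomucin of progenitors, was 9.08 and 9.01 in healthy DN2 and 2.97, 2.89, 2.63, 2.51 and 2.65 in leukemia (−6.31 ± 0.18, adjusted p = 2.73e-12). Both were at background in all 5 leukemia arrays. The homeobox genes Hoxa7 (−2.48 ± 0.15), Hoxa5 (−2.38 ± 0.17) and Hoxa9 (−0.74 ± 0.18) and their partner Meis1 (−1.67 ± 0.23) fell as well, Hoxa9 without passing when healthy array 2 was left out. Cd44, the adhesion receptor that DN2 cells carry, was 10.0 and 10.0 in healthy DN2 and 10.6, 9.67, 9.98, 9.98 and 10.2 in leukemia (0.073 ± 0.43, adjusted p = 0.94).

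Notch receptors and their thymic targets moved downwards where they were called, with 1 exception. Of 12 tested, 5 fell and 1 rose, with a median of −0.91. Hes1, a repressor switched on directly by Notch, was 10.2 and 9.17 in healthy DN2 and 4.67, 4.26, 4.34, 4.70 and 4.59 in leukemia (−5.18 ± 0.60, adjusted p = 1.59e-05). Il2ra was 8.13 and 8.55 in healthy DN2 and 3.40, 3.37, 3.63, 3.37 and 3.58 in leukemia (−4.87 ± 0.15, adjusted p = 4.2e-12), at background in every leukemia array. Notch1, the receptor that drives T-cell commitment, stayed above background in leukemia at 9.10, 8.18, 9.12, 8.77 and 7.75, against 11.7 and 11.7 in healthy DN2 (−3.15 ± 0.47, adjusted p = 0.000181). Notch3 (−2.99 ± 0.16) and the Notch target Dtx1 (−1.66 ± 0.33) fell as well. Lfng, a glycosyltransferase that modifies Notch, was the member that rose (1.65 ± 0.41), though not with either healthy array left out. Nrarp (−1.03 ± 0.82), Rbpj, the DNA-binding partner of Notch (−0.79 ± 0.31), Hey1 (−0.48 ± 0.29), Notch2 (0.044 ± 0.15), Hes5 (0.056 ± 0.19) and Maml1 (0.18 ± 0.24) did not pass. Hes1, the member with the largest fall, had no promoter entry and could not be searched. The promoters of Il2ra and Notch1, the other 2 of the 3 called members with the largest differences, are given from RefSeq on GRCm38.p6, 250 bases before to 50 after the start. They were searched on both strands for TGGGAA, the core letters of the RBPJ site, and hold no match, so no capitals appear. Of the 10 list members with a promoter entry 3 hold these letters (Lfng, Rbpj and Hes5), which is 30.0%, against 28.3% of all 27025 genes with an entry.
Il2ra, chr2:11642542-11642841, plus strand: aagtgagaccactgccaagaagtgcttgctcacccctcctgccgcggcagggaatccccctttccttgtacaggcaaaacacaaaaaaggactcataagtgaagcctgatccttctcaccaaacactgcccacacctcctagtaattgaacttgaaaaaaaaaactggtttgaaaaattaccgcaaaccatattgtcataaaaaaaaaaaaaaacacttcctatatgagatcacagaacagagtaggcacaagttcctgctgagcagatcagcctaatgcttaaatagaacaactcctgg
Notch1, chr2:26503773-26504072, minus strand: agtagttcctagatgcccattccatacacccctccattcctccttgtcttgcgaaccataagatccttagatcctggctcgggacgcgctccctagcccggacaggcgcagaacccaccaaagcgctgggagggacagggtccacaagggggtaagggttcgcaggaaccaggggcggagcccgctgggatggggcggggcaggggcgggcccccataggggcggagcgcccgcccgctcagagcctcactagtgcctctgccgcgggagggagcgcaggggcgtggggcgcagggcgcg

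Genes of antigen receptor recombination fell or did not pass. Of 11 tested, 5 fell (median −0.61). Rag1 and Rag2, the recombinase subunits, were 7.51 and 7.61 and 7.08 and 7.50 in the healthy arrays and at background in leukemia, at 3.64, 2.99, 3.65, 2.98 and 2.92 for Rag1 and 3.12, 3.28, 3.28, 3.46 and 3.24 for Rag2 (−4.32 ± 0.23 and −4.01 ± 0.15). The ligase Lig4 fell by 2.68 ± 0.41 and the end-binding protein Xrcc6 by 1.94 ± 0.43, the latter not with either healthy array left out. Xrcc6's partner Xrcc5 (0.63 ± 0.24) and the kinase Prkdc (−0.086 ± 0.21) did not pass.

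Among T-cell receptor chains and their signalling partners, 24 were tested, of which 12 rose and 2 fell, with a median of 1.08. Without arrays 1 and 3, 12 rose and 1 fell. Cd3d was 5.13 and 5.41 in healthy DN2 and 12.2, 12.5, 12.2, 12.5 and 12.4 in leukemia (7.09 ± 0.46, adjusted p = 2.83e-08), whereas Cd3g was already 10.0 and 9.89 in healthy DN2 and 11.1, 11.8, 11.2, 12.0 and 11.3 in leukemia (1.52 ± 0.35). Cd3e rose by 2.90 ± 0.24, and Cd247, the zeta chain, differed by 0.83 ± 0.31 (adjusted p = 0.0664). In a fit over all probe sets, other Cd247 probe sets differed by 1.67 ± 0.32 (adjusted p = 0.00183) and 1.53 ± 0.34 (adjusted p = 0.0048). Another, at background, differed by −0.12 ± 0.17. Zap70, the kinase recruited by the CD3 chains, was 5.00 and 4.51 in healthy DN2 and 9.19, 9.28, 9.45, 9.37 and 9.59 in leukemia (4.62 ± 0.15, adjusted p = 9.62e-12). Sh2d1a, the adaptor SAP, rose by 5.73 ± 0.26, the Tec kinase Txk by 5.73 ± 0.31 and the costimulatory receptor Cd28 by 3.58 ± 0.34. Cd5 (1.93 ± 0.21), the kinase Fyn (1.97 ± 0.42) and the adaptor Skap1 (1.34 ± 0.23) rose less. Themis, a regulator of thymocyte selection, fell by 2.74 ± 0.39, and Trat1 by 1.02 ± 0.35, a call lost in 11 of 20 alternatives. The adaptors Lat (−0.063 ± 0.43) and Lcp2 (−0.058 ± 0.25) were at 9.73 to 10.6 in every array and did not pass. Cd4 (−0.11 ± 0.12) and Cd8a (0.12 ± 0.21) lay near background in all 7 arrays, but Cd8b1, the CD8 beta chain, was 3.33 and 3.85 in healthy DN2 and 5.84, 7.81, 6.96, 6.15 and 7.27 in leukemia (3.22 ± 0.50, adjusted p = 0.000255). Cd3g lost its call with either healthy array left out.

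T-lineage transcription factors moved both ways, 4 up and 4 down of 16 (25% each, against 9.48% higher and 13.7% lower over all genes). Id3, an inhibitor of E proteins, was 5.52 and 5.08 in healthy DN2 and 9.33, 10.0, 10.2, 10.8 and 10.5 in leukemia (4.88 ± 0.64, adjusted p = 5.29e-05). Lef1 (3.09 ± 0.22) and Ikzf3, the Ikaros relative Aiolos (2.97 ± 0.47), rose from background. Ets1 rose by 1.79 ± 0.60 (adjusted p = 0.0443) and Sox4 fell by 1.68 ± 0.58 (adjusted p = 0.0484), with calls lost in 10 and 11 of 20 alternatives. In a fit over all probe sets, the other Ets1 probe sets differed by 3.66 ± 0.58 (adjusted p = 0.000388), 3.94 ± 0.53 (adjusted p = 9.16e-05) and 2.01 ± 0.66 (adjusted p = 0.0396). Runx1 (−2.68 ± 0.56), Sox13 (−1.67 ± 0.19) and Gata3 (−1.17 ± 0.19) fell. Gata3 nonetheless remained at 6.97, 7.03, 6.78, 6.81 and 6.98 in leukemia, against 8.15 and 8.01 in healthy DN2. Bcl11b, the T-lineage commitment factor, was 9.36, 9.22, 9.67, 9.64 and 8.30 in leukemia and 10.9 and 10.9 in healthy DN2 (−1.70 ± 0.90, adjusted p = 0.205). All 5 leukemia arrays lay below both healthy arrays, as for 26.5% of all genes, and this probe set passed in a fit of the 7 arrays alone (adjusted p = 0.0138). In a fit over all probe sets, other Bcl11b probe sets differed by −1.68 ± 0.27 (adjusted p = 0.000394), −2.43 ± 0.51 (adjusted p = 0.00325) and −1.44 ± 0.56 (adjusted p = 0.0786). Runx3 (0.47 ± 0.16), Ikzf1 (0.038 ± 0.22) and Satb1 (−0.63 ± 0.90) did not pass.

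Gimap genes, a cluster of GTPases of lymphocyte survival, rose in 5 of 8 members (median 2.87). Gimap4 was 4.15 and 4.52 in healthy DN2 and 11.5, 11.6, 11.5, 11.5 and 11.4 in leukemia, and Gimap3 3.76 and 3.49 in healthy DN2 and 8.87, 9.05, 9.06, 9.01 and 8.06 in leukemia (5.19 ± 0.27, adjusted p = 2.15e-09). Gimap8 (3.80 ± 0.64), Gimap7 (2.96 ± 0.61) and Gimap6 (2.78 ± 0.20) rose too, while Gimap1 was 9.77 and 9.94 in healthy DN2 and differed by 0.34 ± 0.34. Array 5 was the lowest leukemia array for each of Gimap1, Gimap3, Gimap5, Gimap7 and Gimap8, at 8.86 for Gimap8 against 10.8 to 11.3 in the other leukemias.

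NK-cell receptors rose, though unevenly among the leukemia arrays. Of 15 tested, 7 rose, with a median of 3.48. By limma without arrays 1 and 3, 7 rose and 3 fell with a median of 0.80. The 7 were Klrk1, Klrb1c, Klrd1, Klrc1, the Ly49 receptor Klra7 (6.24 ± 0.97), the interleukin 2 and 15 receptor chain Il2rb and the adaptor Hcst (DAP10). Il2rb was 3.66 and 3.71 in healthy DN2 and 9.27, 9.34, 9.78, 9.75 and 9.87 in leukemia (5.92 ± 0.19, adjusted p = 6.08e-12), and Hcst 7.17 and 7.32 in healthy DN2 and 11.0, 10.4, 10.9, 10.9 and 11.1 in leukemia (3.61 ± 0.30). These 2 varied little between leukemia arrays. Klrc1, by contrast, was 10.6, 5.46, 10.9, 9.35 and 10.2 in leukemia and lowest in array 2. Klrg1, a receptor of mature NK cells, was 11.9, 3.98, 12.0, 5.24 and 3.84 in leukemia and 3.79 and 4.04 in healthy DN2 (3.48 ± 1.86, adjusted p = 0.212). Ncr1, which encodes NKp46, was 9.56, 3.40, 9.95, 4.50 and 3.82 in leukemia and 3.09 and 3.12 in healthy DN2 (3.14 ± 1.47, adjusted p = 0.146). For both only arrays 1 and 3 were above 9. Tyrobp, the adaptor DAP12, was already 11.0 and 11.0 in healthy DN2 and 11.9, 4.51, 11.6, 7.18 and 5.05 in leukemia (−2.92 ± 1.57), so arrays 1 and 3 lay above the healthy level and the other 3 below it. Fcer1g (11.4, 6.82, 11.1, 8.91 and 8.66), Cd244a (9.06, 4.51, 8.86, 4.93 and 4.53) and Cd160 (8.91, 7.39, 10.1, 7.55 and 7.54) were also highest in arrays 1 and 3, and Klrb1f and Klra8 did not pass. The mean of the list was 10.3, 6.77, 10.3, 8.10 and 7.65 in leukemia arrays 1 to 5 and 5.49 and 5.47 in healthy DN2.

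Cytotoxic effector genes followed a similar pattern, with 8 of 14 higher and 1 lower (median 2.68). With either healthy array left out 5 were higher, and without arrays 1 and 3 there were 8 higher and 3 lower (median 1.63). The fall, that of Tnfsf10, was not called without healthy array 1. Ccl5, a chemokine of effector lymphocytes, was 8.37 and 7.57 in healthy DN2 and 13.37, 12.33, 13.45, 12.99 and 12.72 in leukemia (5.00 ± 0.50, adjusted p = 3.65e-06). Ifng, interferon gamma, was 5.66 and 5.77 in healthy DN2 and 11.0, 9.50, 9.88, 9.32 and 10.8 in leukemia (4.39 ± 0.56, adjusted p = 3.95e-05). Xcl1, lymphotactin, rose by 3.89 ± 0.51 and Ctsw, a protease of cytotoxic cells, by 2.58 ± 0.33. Gzma, a granzyme, was 9.09 and 9.15 in healthy DN2 and 13.2, 10.4, 13.3, 11.2 and 11.4 in leukemia (2.78 ± 0.63), and Prf1, perforin, 3.34 and 3.63 in healthy DN2 and 8.65, 4.28, 8.53, 5.69 and 4.79 in leukemia (2.90 ± 0.97, adjusted p = 0.042), both highest in arrays 1 and 3. Gzma, Prf1 and Gzmm (2.89 ± 0.81) lost their calls with either healthy array left out. Gzmb, granzyme B, was 8.60 and 7.86 in healthy DN2 and 12.1, 4.75, 11.6, 5.46 and 6.94 in leukemia (−0.07 ± 1.56, adjusted p = 0.985), above the healthy level in arrays 1 and 3 and below it in the other 3. Fasl (10.2, 3.81, 8.95, 6.52 and 5.49 against 8.02 and 8.02) and Ccl4 (11.6, 4.27, 10.7, 6.23 and 7.50 against 8.62 and 7.82) showed the same split. Tnfsf10, the death ligand TRAIL, fell by 2.11 ± 0.47 overall.

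NK and innate lymphoid transcription factors rose in 4 of 10 members (median 1.72). Eomes was 3.27 and 3.78 in healthy DN2 and 10.4, 10.2, 10.4, 11.2 and 10.5 in leukemia, and Tbx21, T-bet, 2.72 and 2.58 in healthy DN2 and 10.1, 9.06, 10.5, 9.37 and 8.30 in leukemia. Id2, an E-protein inhibitor required for NK cells, was 8.52 and 8.42 in healthy DN2 and 10.9, 10.7, 10.8, 10.8 and 11.0 in leukemia (2.38 ± 0.35, adjusted p = 0.000185). Nfil3, a bZIP factor of early NK development, rose by 2.68 ± 0.57 but not without healthy array 2. Prdm1 was 7.35, 3.98, 7.55, 4.16 and 4.16 and highest in arrays 1 and 3 (1.99 ± 0.83), while Zbtb16 (5.73, 4.87, 5.11, 5.11 and 7.77) and Rora (4.33, 3.55, 3.57, 3.43 and 6.36) were highest in array 5. Ikzf2 was 12.0, 12.0, 11.7, 12.3 and 11.8 against 10.6 and 10.4 (1.46 ± 1.18, adjusted p = 0.437, and 0.0015 in a fit of the 7 arrays alone). Another Ikzf2 probe set differed by 2.02 ± 0.47 in a fit over all probe sets (adjusted p = 0.00595).

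**Figure D4:**
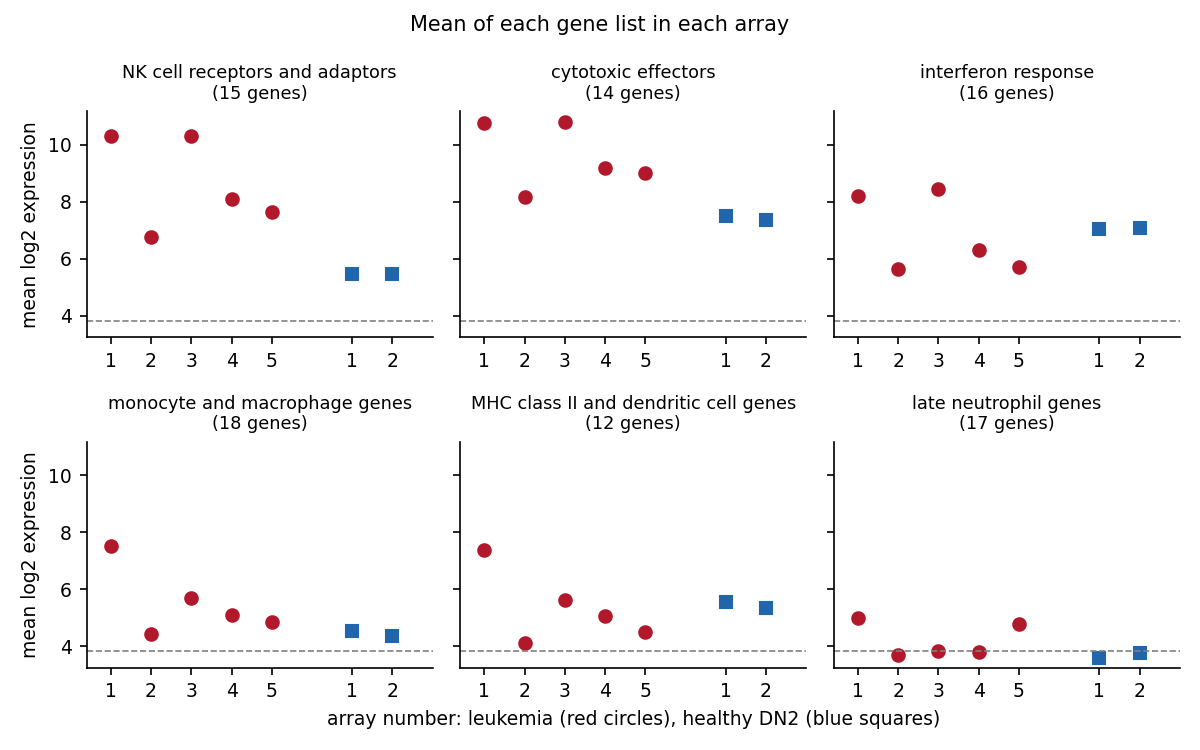
Mean log2 expression of 6 gene lists in each array, with leukemia arrays 1 to 5 as red circles, the 2 healthy DN2 arrays as blue squares and a dashed line at the median of all values, 3.83. Arrays 1 and 3 are highest for NK receptors, cytotoxic effectors and interferon response genes, array 1 for monocyte and MHC class II genes, and arrays 1 and 5 for late neutrophil genes.

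Among receptors for cytokines 34.8% were called higher, against 9.48% over all genes. Another 17.4% were called lower, near the 13.7% over all genes. Of 23 tested, 8 rose and 4 fell (5 and 4 rose with healthy array 1 or 2 left out, and 5 with the replicate number as a block). Il18r1, the interleukin 18 receptor, was 5.66 and 4.73 in healthy DN2 and 11.3, 11.4, 11.1, 10.9 and 10.6 in leukemia (5.85 ± 0.60, adjusted p = 4.58e-06), and its partner Il18rap rose by 3.78 ± 0.58. Il27ra (2.01 ± 0.28), Ifngr1, the interferon gamma receptor (1.76 ± 0.39), Il6st, the shared chain gp130 (1.73 ± 0.47), Il10ra (1.79 ± 0.59) and Tgfbr2 (0.80 ± 0.26) rose less. The calls of Il10ra and of Tgfbr2 were each lost in 8 of 20 alternatives and that of Il6st in 3. Besides Kit and Il2ra, the interleukin 1 receptor Il1r1 fell from 7.20 and 6.91 to 3.74, 3.70, 3.77, 3.55 and 4.11 (−3.28 ± 0.46, adjusted p = 0.00011), and Il12rb2 fell by 0.88 ± 0.21. Il2ra thus fell to background while Il2rb, the chain shared by the interleukin 2 and 15 receptors, rose from it.

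Among homing genes 8 of 19 rose and 1 fell (median 1.32), and without arrays 1 and 3 there were 8 higher and 2 lower (median 0.49). Ccr9, the receptor for the thymic chemokine Ccl25, was 6.75 and 6.18 in healthy DN2 and 3.40, 2.95, 3.23, 2.84 and 3.38 in leukemia (−3.30 ± 0.20, adjusted p = 1.36e-08). S1pr1, the receptor that lets lymphocytes leave the thymus, was 4.70 and 4.63 in healthy DN2 and 9.06, 9.73, 7.95, 9.75 and 9.35 in leukemia (4.51 ± 0.38, adjusted p = 5.38e-07), and Klf2, a factor that activates it, rose by 2.50 ± 0.44. Cxcr3, a chemokine receptor of effector cells, was 3.53 and 3.67 in healthy DN2 and 8.51, 8.15, 9.64, 9.24 and 9.36 in leukemia (5.38 ± 0.54). The integrin chains Itgb2 (3.59 ± 0.50), Itgb1 (2.45 ± 0.27), Itgb7 (2.30 ± 0.61) and Itgae (1.08 ± 0.24) and the chemokine receptor Cxcr5 (2.71 ± 0.56) rose as well. S1pr5, which NK cells use to leave the marrow, was 10.1, 3.98, 10.7, 5.63 and 3.17 in leukemia and 3.16 and 2.97 in healthy DN2 (3.65 ± 1.61, adjusted p = 0.125), and Cx3cr1 8.25, 3.16, 7.87, 3.57 and 3.59 in leukemia and 3.50 and 3.50 in healthy DN2. Arrays 1 and 3 were the highest for both. Itgb7 did not pass with either healthy array left out, nor Itgae without healthy array 1.

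Many granule genes of neutrophils were near background in most leukemia arrays. Among primary granule genes 2 of 7 fell, Mpo and Ctsg, cathepsin G (7.52 and 7.49 in healthy DN2, 3.26, 3.06, 3.36, 2.90 and 3.50 in leukemia, −4.29 ± 1.16), and Ctsg lost its call with either healthy array left out. Elane (4.24, 4.55, 4.63, 4.90 and 4.87), Prtn3 (3.74, 3.85, 3.51, 3.20 and 3.26) and Ms4a3 (3.14, 2.84, 3.14, 3.38 and 2.93) lay near background in leukemia and in healthy DN2, while Ctsc, the protease that activates granule enzymes, was 10.6, 9.99, 11.1, 10.3 and 10.5 in leukemia and 9.96 and 9.98 in healthy DN2 (0.52 ± 1.11, adjusted p = 0.802). Limma called 0 of 17 late neutrophil genes, with 2 at an unadjusted p under 0.05, while array weights called 3 higher and 1 lower, and 1 was lower without arrays 1 and 3. S100a8, an alarmin of neutrophils, was 7.05, 3.39, 3.87, 4.13 and 8.03 in leukemia and 3.20 and 3.16 in healthy DN2 (2.11 ± 0.94, adjusted p = 0.129), S100a9 was 7.36, 3.33, 3.96, 4.10 and 8.09 and Chil3 6.81, 3.60, 3.53, 3.57 and 8.02. These 3 were raised in arrays 1 and 5 and near background in the other 3. Camp (4.30, 3.75, 3.63, 4.43 and 4.98), Ltf (4.80, 3.60, 4.24, 3.60 and 4.06) and Csf3r, the G-CSF receptor (5.40, 4.96, 5.14, 4.50 and 4.38), stayed within 3.43 to 5.40 in every array. The late neutrophil mean was 3.68 to 5.00 in DN2-labelled leukemia and 11.4 to 12.6 in GMP-labelled leukemia.

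Of 18 monocyte and macrophage genes 3 rose (16.7%, against 9.48% over all genes), and 1 was lower in the fit of the 7 arrays and without arrays 1 and 3. Lgals3, galectin 3, was 3.81 and 3.52 in healthy DN2 and 10.8, 7.38, 10.00, 9.29 and 10.2 in leukemia (5.86 ± 0.67, adjusted p = 1.49e-05), Ctss, cathepsin S, 6.54 and 6.49 in healthy DN2 and 11.2, 9.50, 10.5, 9.79 and 9.34 in leukemia (3.55 ± 0.46), and Fcgr3, an Fc receptor also carried by NK cells, 5.11 and 4.66 in healthy DN2 and 8.59, 7.55, 7.31, 7.13 and 6.77 in leukemia (2.58 ± 0.37). All 3 rose in the test without arrays 1 and 3 too. Ms4a6c was not among them. In a fit over all probe sets, the probe set that stood for it differed by 0.34 ± 1.28 (adjusted p = 0.896). The other Ms4a6c probe set differed by 7.08 ± 0.35 (adjusted p = 2.49e-09). Lyz2, lysozyme, was 11.5, 4.33, 6.59, 7.11 and 5.63 in leukemia and 9.03 and 8.77 in healthy DN2 (−1.87 ± 1.22, adjusted p = 0.318), Cybb 10.4, 2.98, 5.69, 4.44 and 3.22 against 2.89 and 3.14, Mpeg1 10.0, 3.60, 5.48, 5.21 and 3.66 against 4.16 and 4.04 and Adgre1, a macrophage surface marker, 7.60, 3.02, 3.07, 3.80 and 3.17 against 3.06 and 3.24. Array 1 was the highest for these 4 genes. It was also the highest for the MHC class II genes H2-Aa, at 11.1, 3.45, 7.77, 6.59 and 4.83 against 5.66 and 5.22 (1.31 ± 1.49, adjusted p = 0.602) and Cd74, at 8.65, 3.83, 5.67, 5.08 and 3.93 against 4.14 and 4.17. In the list of 12 MHC class II and dendritic genes 1 member fell, and 2 did without arrays 1 and 3: the call in all arrays was the E protein Tcf4 (8.96 and 8.96 in healthy DN2, 5.89, 5.54, 4.79, 5.37 and 4.57 in leukemia, −3.73 ± 0.70). How far the monocyte and neutrophil RNA of arrays 1 and 5 bears on other differences was not tested.

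Myeloid transcription factors were called in 3 of 10 (10% higher and 20% lower), shares near the 9.48% and 13.7% over all genes. Nfe2, a factor of progenitors and megakaryocytes, was 10.6 and 10.6 in healthy DN2 and 5.26, 4.34, 4.54, 4.84 and 3.22 in leukemia (−6.15 ± 0.44, adjusted p = 8.13e-08), and Spi1 fell as above. Egr2, a zinc-finger factor also induced by T-cell receptor signals, rose from 4.64 and 3.80 to 7.77, 7.36, 7.58, 8.01 and 6.66 (3.25 ± 0.68), though not without healthy array 2. Cebpa (4.35, 3.48, 3.35, 3.41 and 3.43) and Cebpd (3.81, 3.20, 2.70, 2.76 and 3.16), factors of granulocytes and monocytes, were near background throughout. Other members were well above it: Cebpb, of the same family, was 10.8, 9.84, 9.30, 10.1 and 11.2 in leukemia against 10.2 and 10.2 in healthy DN2 (0.045 ± 0.42) and Gfi1, a repressor of granulocyte precursors and lymphocytes, 8.85, 8.84, 8.47, 9.16 and 9.28 against 8.76 and 8.95 (0.066 ± 0.36). Klf4 was 9.23, 9.59, 5.08, 8.52 and 10.6 against 9.98 and 9.90, low in array 3, and Irf8 was 9.29, 4.89, 8.64, 5.99 and 5.02 against 6.41 and 6.03.

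Other cell types were examined by their own lists. Called lower were 14.3% of B-lineage, 16.7% of platelet and 28.6% of mast cell genes, against 13.7% over all genes. Called higher were 14.3% of erythroid and 20% of stroma genes, against 9.48% over all genes. Among 7 B-lineage genes Vpreb1, the surrogate light chain, fell from 5.93 and 5.86 to 3.57, 3.65, 4.08, 4.12 and 3.52 (−2.11 ± 0.39), while Cd79a was at 3.66 to 4.48 in all 7 arrays. Jchain was 6.67, 3.18, 7.68, 3.20 and 4.58 and Ms4a1, CD20, 4.73, 3.07, 5.43, 2.97 and 3.28 in leukemia, both highest in arrays 1 and 3. Of 7 erythroid genes Hba-a1, alpha globin, was called higher (13.1, 12.3, 10.2, 10.8 and 8.09 against 7.07 and 7.26, 3.72 ± 1.08, adjusted p = 0.0221), a call lost with either healthy array left out, without arrays 1 and 3 and in the fit of the 7 arrays. Among mast cell genes Cpa3 and Mcpt8 (−2.32 ± 0.73) fell, the latter not without array 1 or either healthy array, and Cma1, mast cell chymase, was 9.33, 2.90, 9.90, 4.12 and 3.17 against 2.92 and 3.07 (2.89 ± 1.57, adjusted p = 0.221). Gata2 (3.39, 3.30, 3.25, 3.60 and 3.56 against 4.25 and 3.61) and Fcer1a (2.68, 2.75, 2.81, 2.73 and 2.67 against 2.83 and 2.71) were near background. Itgb3 was the single platelet gene of 6 called (−1.76 ± 0.60, adjusted p = 0.0474), and the call was lost in 14 of 20 alternatives. Of 5 stroma genes tested, Epcam, an epithelial adhesion protein that some thymocytes also carry, was 6.26 and 6.58 in healthy DN2 and 9.57, 9.90, 9.71, 9.88 and 10.0 in leukemia (3.40 ± 0.66, adjusted p = 0.00171), whereas Krt5 and Krt8 were at 3.30 to 4.44 and Foxn1 (3.16 in leukemia, 2.98 in healthy DN2) at background.

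The transgene families showed probe sets that went in opposite directions. Of 11 tested genes named for the sort and the transgenes 6 rose and 1 fell: Mycn, Cd3d, Cd3e, Cd3g, Cd8b1 and Ly6c1, a Gr1-related surface protein (6.05 ± 0.19), were higher and Myc was lower. Myc, the oncogene named in the labels, was lower in leukemia at its probe set, 5.62, 5.93, 5.48, 5.58 and 6.35 against 10.1 and 10.3 (−4.40 ± 0.26, adjusted p = 1.21e-08). Its relative Mycn was 11.6, 12.1, 11.8, 11.9 and 12.0 in leukemia and 4.21 and 4.52 in healthy DN2 at the brightest probe set (7.51 ± 1.51, adjusted p = 0.00209). In a fit over all probe sets, another Mycn probe set fell from 8.03 and 8.60 in healthy DN2 to 2.90, 3.05, 2.92, 2.87 and 3.05 in leukemia, a difference of −5.36 ± 0.16 (adjusted p = 6.58e-12). That second probe set was at 2.63 to 3.58 in the other 10 arrays, and the brightest was at 12.1 to 13.1 in the 5 GMP-labelled leukemias and at 12.8, 4.91 and 4.22 in the 3 LSK-labelled ones. Bcl2, the anti-apoptotic partner, was 9.25, 9.94, 9.51, 9.79 and 9.90 in leukemia and 6.99 and 6.78 in healthy DN2 at its brighter probe set, a difference of 2.79 ± 1.03 that did not pass (adjusted p = 0.0635) but did in a fit of the 7 arrays alone (adjusted p = 0.00012). Its other probe set was 6.60, 5.27, 6.98, 6.75 and 5.48 in leukemia and 9.84 and 9.44 in healthy DN2, a difference of −3.43 ± 0.54 (adjusted p = 0.000353). For Mycn and for Bcl2, then, 1 probe set was higher in every leukemia array than in both healthy arrays and another was lower in every one. Which part of each transcript a probe set reads was not analysed here, and a transgene cannot be told apart from the mouse's own gene.

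The remaining Myc and Bcl2 relatives were followed as lists. In the Myc network 2 of 9 fell and 1 rose (3 in the fit of the 7 arrays). These shares, 22.2% and 11.1%, were near the 13.7% lower and 9.48% higher over all genes. Besides Myc, Mxd3 fell by 1.25 ± 0.34, with a call lost with either healthy array left out, and Mnt (0.66 ± 0.24), Mxd1 (1.40 ± 0.70) and Mxi1 (0.50 ± 0.24) did not pass. In the fit over all probe sets, other Mxd1 probe sets differed by 1.96 ± 0.49 (adjusted p = 0.0094) and 0.62 ± 0.60 (adjusted p = 0.523). In the Bcl2 family 4 of 14 rose (28.6%, against 9.48% over all genes) and 2 fell (14.3%, near the 13.7% over all genes). Bcl2l11, the death promoter Bim, was 8.69 and 8.19 in healthy DN2 and 12.5, 12.2, 12.3, 12.4 and 11.7 in leukemia (3.77 ± 0.45, adjusted p = 2.1e-05). The other death promoters Bbc3 (Puma) and Pmaip1 (Noxa) rose by 2.98 ± 0.56 and 2.53 ± 0.61, the latter not without healthy array 2. Bcl2a1a, a survival gene of a family of near-identical copies whose signals the probes may share, was 3.38 and 3.45 in healthy DN2 and 10.3, 7.44, 8.17, 9.16 and 9.43 in leukemia (5.49 ± 0.69). Bcl2l1, which encodes Bcl-xL, fell by 1.10 ± 0.22 and Bcl2l2 by 2.30 ± 0.31, while Mcl1 was 11.8, 11.5, 11.4, 11.6 and 12.1 against 11.4 and 11.1 (0.40 ± 0.25). Among 15 genes of the p53 response 3 rose and 1 fell (20.0% and 6.67%), called together about as often as the 23.2% over all genes. Zmat3 (3.39 ± 0.58), the death receptor Fas (2.77 ± 0.39) and Sesn1 (1.26 ± 0.30) were higher and the cell cycle inhibitor Cdkn1a was lower (7.77, 5.71, 7.02, 5.38 and 7.51 against 9.46 and 9.06, −2.58 ± 0.87, adjusted p = 0.0438). The call of Cdkn1a was lost in 9 of 20 alternatives and that of Sesn1 with either healthy array left out, and the fit of the 7 arrays called 6 higher. Ccng1 was not called, but in the fit over all probe sets its other probe sets differed by 1.39 ± 0.37 (adjusted p = 0.015) and 1.43 ± 0.36 (adjusted p = 0.00984). Mdm2, the regulator of p53, differed by 0.20 ± 0.23 and Cdkn2a, which encodes Arf and p16, was 6.91, 3.77, 5.89, 4.85 and 6.32 against 3.30 and 3.46 (adjusted p = 0.378).

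Growth genes that Myc proteins are known to activate were followed as 4 lists. Limma called 0 of 27 ribosome biogenesis genes, with a median difference of 0.26 and a range of −0.46 to 1.10, and 2 had an unadjusted p under 0.05. A fit of the 7 arrays alone called 2 of them higher and array weights 8. These counts use 1 probe set per gene. In a fit over all probe sets, another Ddx21 probe set differed by 1.29 ± 0.40 (adjusted p = 0.0295). Fbl, fibrillarin, was 11.5, 12.0, 11.9, 11.9 and 11.8 in leukemia and 11.7 and 11.6 in healthy DN2 (0.19 ± 0.28), and Npm1, nucleophosmin, 12.7, 12.9, 12.8, 12.8 and 12.9 in leukemia and 12.8 and 12.8 in healthy DN2 (0.042 ± 0.28). Limma also called 0 of 8 amino acid transporters, with 2 at an unadjusted p under 0.05, Slc1a5 among them (1.42 ± 0.52, adjusted p = 0.0642), and the fit of the 7 arrays called 1. Of 14 nucleotide synthesis genes 3 fell, the ribonucleotide reductase subunits Rrm2 (−3.02 ± 0.73) and Rrm1 (−1.99 ± 0.38) and the thymidylate synthase Tyms (−2.73 ± 0.70), and 1 of them did so with either healthy array left out. The share of nucleotide synthesis genes called lower was 21.4%, against 13.7% over all genes. In glycolysis 3 of 18 rose and 2 fell (16.7% and 11.1%), shares near the 9.48% and 13.7% over all genes. Pfkp, the platelet form of phosphofructokinase, was 7.24 and 7.39 in healthy DN2 and 11.0, 11.0, 11.3, 10.9 and 11.2 in leukemia (3.79 ± 0.21, adjusted p = 4.42e-09), while the muscle and liver forms Pfkm (−1.16 ± 0.22) and Pfkl (−1.43 ± 0.37) fell. Eno3, muscle enolase, rose by 3.43 ± 0.62 and the glucose transporter Slc2a3 by 1.19 ± 0.32, while Gapdh (−0.039 ± 0.14), Ldha (−0.013 ± 0.18) and Pkm (0.21 ± 0.16) did not pass. Pfkl and Slc2a3 lost their calls with either healthy array left out.

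Cell cycle genes were lower in leukemia than in healthy DN2, to an extent that differed widely between leukemia arrays. Of 20 DNA replication genes 18 fell (median −1.87). In all 20 every leukemia array was below both healthy arrays, as in 26.5% of all genes. Cdc6, which loads the replicative helicase, was 9.74 and 9.79 in healthy DN2 and 6.59, 5.77, 8.64, 6.89 and 4.33 in leukemia (−3.32 ± 0.80, adjusted p = 0.00715). The helicase subunits Mcm5 (7.50, 6.81, 8.55, 7.68 and 5.99 against 9.85 and 9.83, −2.54 ± 0.55) and Mcm3 (7.14, 7.18, 8.23, 7.82 and 7.05 against 10.1 and 9.93, −2.51 ± 0.46) fell, whereas Pcna, the polymerase clamp, differed by −0.43 ± 0.24 and Cdt1 by −0.52 ± 0.29. Of 23 mitosis genes 22 fell (median −2.40). Mki67, the proliferation antigen, was 11.1 and 11.1 in healthy DN2 and 9.29, 7.30, 10.6, 8.89 and 7.08 in leukemia (−2.46 ± 0.72, adjusted p = 0.0235), Top2a 11.5 and 11.5 in healthy DN2 and 8.76, 7.78, 10.3, 8.97 and 7.44 in leukemia (−2.86 ± 0.56) and Tpx2, a spindle factor, 8.96 and 9.10 in healthy DN2 and 6.22, 5.16, 7.89, 6.28 and 4.42 in leukemia (−3.03 ± 0.65). Array 3 was the highest leukemia array and array 5 the lowest for Cdc6, Mcm5, Mcm3, Mki67, Top2a and Tpx2. The mitosis mean was 7.40, 6.06, 8.95, 7.36 and 5.68 in arrays 1 to 5 and 9.46 and 9.44 in healthy DN2, and the replication mean was 8.00, 7.67, 8.93, 8.16 and 7.27 in leukemia and 9.89 and 9.87 in healthy DN2.

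The 2 healthy arrays lay close together, with replication means of 9.89 and 9.87 and mitosis means of 9.46 and 9.44. Far fewer of these genes were called with either healthy array left out. Such a fit has 1 healthy array and less precision, so the loss does not show that the falls rest on either array. In a fit of the 7 arrays alone 20 replication and 6 mitosis genes were called lower. Without leukemia arrays 1 and 3 the counts for replication and mitosis were 18 and 22, and the medians −2.12 and −3.33.

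**Figure D5:**
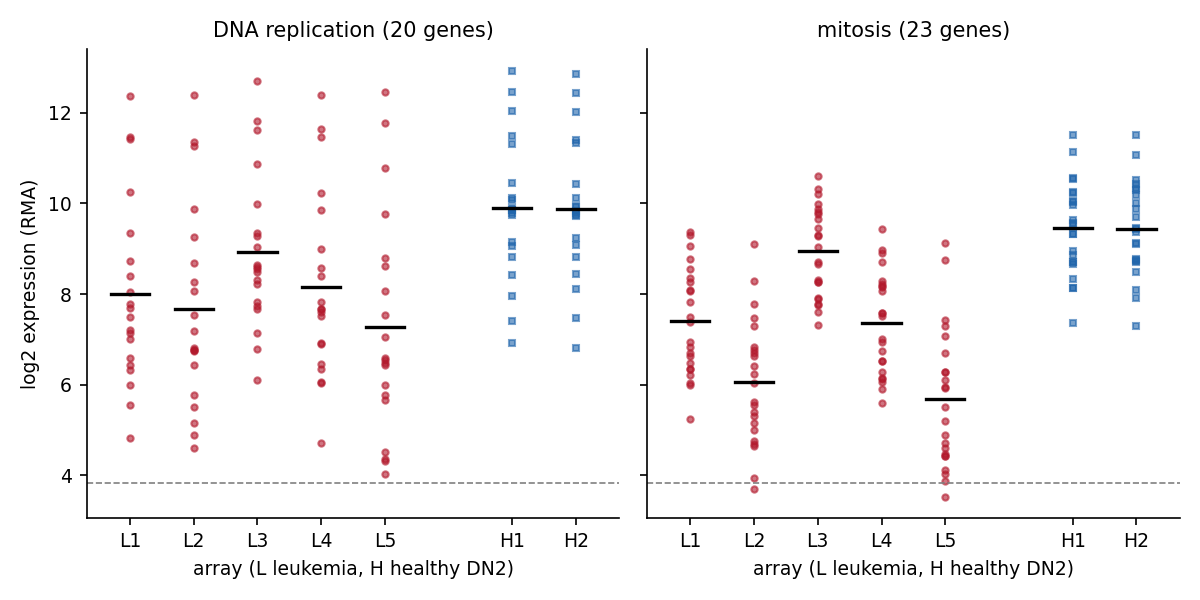
Log2 expression of 20 DNA replication genes (left) and 23 mitosis genes (right) in leukemia arrays L1 to L5 (red) and healthy DN2 arrays H1 and H2 (blue), each point a gene, black bars the mean and the dashed line the median of all values, 3.83. Both healthy means lie above every leukemia mean, array L3 is the nearest to them, and L2 and L5 are the lowest.

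The promoters of replication genes are shown because 18 members fell together and 9 of the 16 with a RefSeq entry (56.2%) hold the letters TTTGGCGC or TTTCCCGC, forms of the E2F site, on either strand. Of all 27025 genes with an entry 1.8% hold them, as do 0 of 19 mitosis genes and 3 of 22 ribosome biogenesis genes. These letters were chosen after the calls were seen, and a match is a description of the sequence, not a bound site. The 3 called replication genes with the largest falls among the holders are given on GRCm38.p6 with the matches in capitals. The match lies 138 bases before the start in Cdc6 and 149 before it in Mcm5, and in Mcm3 there are 2, at 19 and 38 bases after it.
Cdc6, chr11:98907901-98908200, plus strand: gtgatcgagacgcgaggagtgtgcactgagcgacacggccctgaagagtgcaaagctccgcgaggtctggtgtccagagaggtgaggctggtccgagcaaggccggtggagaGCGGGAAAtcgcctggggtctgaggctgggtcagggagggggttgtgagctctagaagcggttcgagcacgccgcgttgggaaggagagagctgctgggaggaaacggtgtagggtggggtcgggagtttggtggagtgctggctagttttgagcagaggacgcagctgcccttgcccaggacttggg
Mcm5, chr8:75109259-75109558, plus strand: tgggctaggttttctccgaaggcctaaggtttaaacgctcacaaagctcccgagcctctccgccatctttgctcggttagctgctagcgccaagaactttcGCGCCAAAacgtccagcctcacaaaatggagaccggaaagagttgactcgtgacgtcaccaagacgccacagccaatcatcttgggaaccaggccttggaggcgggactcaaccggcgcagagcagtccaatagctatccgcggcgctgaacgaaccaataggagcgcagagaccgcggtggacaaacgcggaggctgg
Mcm3, chr1:20820263-20820562, minus strand: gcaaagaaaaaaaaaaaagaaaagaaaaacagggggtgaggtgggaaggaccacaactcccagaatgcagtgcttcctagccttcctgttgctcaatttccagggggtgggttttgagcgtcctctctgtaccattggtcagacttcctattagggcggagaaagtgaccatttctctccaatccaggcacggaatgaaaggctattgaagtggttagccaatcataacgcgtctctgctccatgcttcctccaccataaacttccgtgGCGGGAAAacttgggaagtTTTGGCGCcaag

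Regulators of G1 fell in 8 of 20 members and rose in 1 (5 and 4 fell with healthy array 1 or 2 left out, and 3 rose in the fit of the 7 arrays). Cdk6, the D-cyclin kinase of blood progenitors, was 12.4 and 12.3 in healthy DN2 and 9.11, 9.18, 9.50, 9.58 and 9.10 in leukemia (−3.07 ± 0.40, adjusted p = 5.46e-05), with little difference between leukemia arrays. Ccne2, a cyclin E, fell by 2.79 ± 0.61, and Cdk2 (−2.19 ± 0.41) and the factors E2f3 (−2.45 ± 0.32) and E2f1 (−1.47 ± 0.27) fell as well. Rbl2, the pocket protein p130, rose by 0.98 ± 0.26, a call lost with either healthy array left out and without arrays 1 and 3. Ccnd2 was 10.9, 10.7, 11.3, 11.0 and 10.2 against 10.5 and 10.8 (0.16 ± 1.04), and Ccnd1 was 5.05, 9.50, 3.63, 3.30 and 3.69 against 6.04 and 5.78, high in array 2 alone. Among 13 DNA methylation and chromatin genes 5 fell and 1 rose (38.5% and 7.69%, against 13.7% and 9.48% over all genes). Uhrf1, which guides maintenance methylation, was 11.1 and 11.0 in healthy DN2 and 7.84, 6.90, 9.02, 7.81 and 6.02 in leukemia (−3.54 ± 0.60, adjusted p = 0.000547), and Dnmt3b, a de novo methyltransferase, 10.3 and 10.4 in healthy DN2 and 8.09, 8.19, 8.16, 8.01 and 8.12 in leukemia (−2.23 ± 0.38, adjusted p = 0.000613). Uhrf1 followed the order of the cell cycle genes, with array 3 highest and array 5 lowest, while Dnmt3b was even across the leukemia arrays. Ezh2 (−1.61 ± 0.35), Dnmt1 (−1.65 ± 0.46) and Kdm5b (−1.53 ± 0.36) fell and Tet2 rose (0.85 ± 0.21), and with either healthy array left out 3 genes of the list fell. Tet2 was not called without healthy array 2.

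Interferon response genes were uneven and mostly not called. Of 16 tested 1 fell, Ifitm3 (9.10 and 9.52 in healthy DN2, 9.67, 3.39, 5.44, 4.16 and 3.38 in leukemia, −4.10 ± 1.39, adjusted p = 0.0455), and the call was lost in 10 of 20 alternatives. Without arrays 1 and 3 the count was 3. Ifit3 was 8.79, 4.99, 9.66, 6.19 and 4.66 against 4.17 and 4.80 (2.37 ± 1.41), Mx1 7.70, 3.61, 7.93, 3.89 and 4.43 against 4.02 and 3.99 and Irf7 8.21, 5.97, 8.43, 6.86 and 6.42 against 5.65 and 5.53. Arrays 1 and 3 were the highest for all 3, and the list mean was 8.22, 5.63, 8.44, 6.32 and 5.73 in leukemia and 7.07 and 7.08 in healthy DN2. Immediate early genes, which respond to stimulation and to cell handling, had 1 rise (Egr2, not without healthy array 2) and 1 fall, Ier3 (10.9 and 10.7 in healthy DN2, 6.51, 6.98, 5.70, 7.30 and 7.75 in leukemia, −3.94 ± 0.70, adjusted p = 0.000805), among 14. These shares, 7.14% each way, were below the 9.48% higher and 13.7% lower over all genes. Fos was 12.7, 13.4, 12.2, 12.6 and 13.3 against 13.3 and 13.3 and Atf3 10.1, 9.56, 6.09, 6.20 and 9.55 against 8.63 and 8.06, with arrays 3 and 4 the lowest for Atf3.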

How the data were processed

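The arrays measured RNA of flow-sorted or thymic mouse cells on an Affymetrix platform. The deposited values are the authors' log2 expression values per probe set, with RMA and affy named in the submitters' processing notes and their versions not given in the sources used here. RMA values carry no detection call. Of 45141 probe sets 104 controls were left out. The platform annotation gave 1 symbol for 28898 probe sets, several for 551, and 28689 matched RefSeq. The probe set with the highest mean stood for each of 17097 genes, and 11629 genes with a group mean above 3.83 were tested. A mean per group was fitted over all 17 arrays with limma 3.58.1 in R 4.3.3, contrasting leukemia with healthy DN2, with Benjamini-Hochberg adjustment over all genes tested and 0.05 as threshold. The fit pools the spread of all 5 groups (12 residual degrees of freedom). The script was tested on simulated data. The number of arrays limits the precision.

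Named genes were the 15 largest rises and 15 largest falls among called genes without overlap, the genes of the sort and transgenes, and members of the gene lists, called members with the largest differences first. Members and lists were chosen with earlier results of these data known. Eif2s3y and Xist were named for a check of the arrays. Tcf7, Lck, Il7r, Ly6g and Trp53 were not analysed here. Alternatives changed the arrays fitted, the block, the probe set rule, the filter, the normalization, the prior and the array weights.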

Additional observations from a re-analysis of the deposited data

Results flagged for a closer look

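Dixon's 95% critical value for 1 array apart from the nearest other was applied to the 5 leukemia arrays. Of 258 named genes examined 26 exceeded it, as did 4 of 39 list means. Chance gives about 1 in 20 for independent genes picked without regard to their values. These genes were named with values known, Eif2s3y and Xist for a check of the arrays, so the counts cannot be set against that share. Array 1 was the highest for Adgre1 at 7.60 (others 3.02 to 3.80), Cebpa at 4.35 (others 3.35 to 3.48), Deptor at 4.99 (others 3.10 to 3.54), Gfi1b at 3.95 (others 3.39 to 3.53), Lmo2 at 6.64 (others 3.36 to 3.76) and Marcks at 7.26 (others 3.09 to 3.57). Array 2 was the highest for Ccnd1 at 9.50 (others 3.30 to 5.05) and Eif2s3y at 10.0 (others 2.72 to 2.92) and the lowest for Gzmk at 11.0 (others 11.9 to 12.3), Klra7 at 6.37 (others 9.50 to 10.5), Klrc1 at 5.46 (others 9.35 to 10.9) and Xist at 6.34 (others 12.2 to 12.5). Array 3 was the highest for Ccne2 at 6.54 (others 4.24 to 4.68), Cd79a at 4.48 (others 3.81 to 3.96) and Pcna at 12.7 (others 12.4 to 12.4) and the lowest for Mnt at 9.26 (others 9.64 to 9.74). Array 4 was the lowest for 4930519L02Rik at 2.90 (others 3.10 to 3.17). Array 5 was the lowest for Bcl2l11 at 11.7 (others 12.2 to 12.5), Cd247 at 8.11 (others 9.19 to 9.42), Gimap1 at 9.42 (others 10.2 to 10.4), Gimap3 at 8.06 (others 8.87 to 9.06), Gimap8 at 8.86 (others 10.8 to 11.3), Klrb1c at 9.86 (others 10.6 to 10.9), Runx1 at 5.31 (others 7.02 to 7.29) and Skap1 at 9.53 (others 9.98 to 10.0) and the highest for Lmo4 at 9.36 (others 8.25 to 8.42). Of the list means, that of early progenitor transcription factors was highest in array 1 (5.39, others 4.42 to 4.59), that of Gimap GTPases was lowest in array 5 (9.11, others 10.1 to 10.2), that of myeloid transcription factors was highest in array 1 (7.20, others 5.83 to 6.21) and that of sex-linked genes was highest in array 2 (7.68, others 5.36 to 5.53).

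For 26 of the 30 genes with the largest differences, the change from healthy DN2 differed from the change from healthy GMP by the interaction test. The 30 were chosen for their size in DN2, which favours a difference. As the DN2 change minus the GMP change on the log2 scale, it was positive for Cd2 (8.13), Gzmk (8.10), Klrk1 (8.60), Myl1 (7.46), Klrb1c (7.44), Gimap4 (7.18), Cd3d (3.12), Eomes (6.90), Tbx21 (6.90), Crtam (6.48), Epha3 (6.72), Klrd1 (6.59), Klrc1 (6.18) and Gramd3 (8.94). It was negative for Cpa3 (−2.10), Dntt (−8.85), Scin (−6.47), Myl10 (−7.12), Ifitm1 (−5.25), 4930519L02Rik (−1.83), 1810073O08Rik (−6.69), Deptor (−6.07), Rgs18 (−4.29), Marcks (−9.01), Erg (−6.98) and Arpp21 (−6.58).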

How the results depend on the processing

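The full comparison called 2695 genes, 1103 higher and 1592 lower, and 20 alternatives were tried. Weighting the arrays by their quality gave 5885, 2830 and 3055. Leaving out 1 array at a time gave 1236 to 2676 calls, 460 to 1121 higher and 772 to 1601 lower, and the low ends came from leaving out a healthy array (1252, 480 and 772 without array 1, and 1236, 460 and 776 without array 2). With the replicate number as a block there were 2447 calls, 922 higher and 1525 lower. The numbers were not taken as pairs, since deviations of same-numbered leukemia and healthy arrays correlated at 0.0975 and 0.0451. The interaction passed for 24 to 27 of the 30 genes over the alternatives that gave a value. Of 198 called genes in the lists and among the 30, 120 kept their call in every alternative. Cd160 turned to −0.80 (adjusted p = 0.013) without leukemia arrays 1 and 3, and the cause was not tested. Signals near background bound what a difference can show, and 2 healthy arrays limit the precision of every comparison.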
